A study of Mus musculus with 14 samples.

Results

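The genes described here are 8 genes of cholesterol synthesis and its control in mouse epididymal white adipose tissue (eWAT): Srebf2, Insig1, Hmgcs1, Idi1, Fdps, Fdft1, Sqle and Cyp51. They were selected by gene symbol from the 23282 genes of the count table, and all 8 were found. Although the set was labelled as synthesis and uptake, none of the 8 encodes an uptake protein. Genes of uptake and intracellular delivery were therefore read as a separate list, of which only some genes are named. The fat came from male wild-type C57BL/6J mice fed either a standard control diet or a Western diet (WD), which is rich in fat and contains added cholesterol, for 20 weeks. The labels give no age. RNA was read by QuantSeq, a method that sequences the 3′ ends of polyadenylated mRNA, in 14 libraries, 1 per labelled sample. Batch 1 held 4 control (replicates 1 to 4) and 5 WD libraries (replicates 1 to 5), and batch 2 held 5 control libraries (replicates 5 to 9). All WD libraries were in batch 1, so WD and the batch 2 controls differed in diet and batch, and the effects of diet and batch cannot be told apart between them.

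Cells build cholesterol from acetyl-CoA through the mevalonate pathway. Its genes are switched on by SREBP-2, the product of Srebf2, a transcription factor held in the endoplasmic reticulum while sterols are plentiful. The INSIG proteins keep it there by retaining its escort SCAP. Adipose tissue stores a large pool of free cholesterol and obtains much of it from lipoproteins, and adipocytes and macrophages both carry this machinery.

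The promoters of 5 of the 8 genes (Srebf2, Hmgcs1, Idi1, Cyp51 and Insig1) were present in the RefSeq table of GRCm38.p6 promoters. Those of Hmgcs1 and Insig1, the only 2 that held a core sterol motif, are shown. They were picked with expression values known, both having an unadjusted edgeR p under 0.05 for WD against the batch 2 controls. That threshold was met by 17.7% of all genes, and a link between motif and level was not tested. Each sequence is the 250 bases before the transcription start, 5′ to 3′ on the gene's strand, which is the plus strand for both. Hmgcs1 is at chr13:119690101-119690350 and Insig1 at chr5:28071162-28071411. Capitals mark the sterol core CACNCCAC and the NF-Y box CCAAT on either strand, so that a match on the minus strand reads as its reverse complement (ATTGG for CCAAT).
Hmgcs1: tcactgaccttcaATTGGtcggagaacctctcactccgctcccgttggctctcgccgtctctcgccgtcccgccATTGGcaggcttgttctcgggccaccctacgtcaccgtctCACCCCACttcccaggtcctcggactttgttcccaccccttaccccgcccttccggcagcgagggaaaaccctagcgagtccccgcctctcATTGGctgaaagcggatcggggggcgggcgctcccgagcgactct
Insig1: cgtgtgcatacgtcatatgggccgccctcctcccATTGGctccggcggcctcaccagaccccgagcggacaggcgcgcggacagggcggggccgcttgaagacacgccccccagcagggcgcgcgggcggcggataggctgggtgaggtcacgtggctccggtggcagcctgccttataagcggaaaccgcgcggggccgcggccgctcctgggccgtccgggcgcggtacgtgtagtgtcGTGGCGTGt
The core began 136 bases before the Hmgcs1 start on the plus strand and 9 bases before the Insig1 start on the minus strand. It was found in 6.24% of the 32851 windows of the table, counted over 250 bases before to 50 after each start. A longer form of the sterol regulatory element was in none of the 5 windows and in 0.234% of all windows. CCAAT and the Sp1 box GGGCGG were in all 5, against 37.4% and 35.7% of all windows. These matches are descriptions of letters in the window, not of binding.

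Total counts were between 10278970 and 13712254 per library, so 3 counts, taken as the lowest level that can be shown, corresponded to 0.219 to 0.292 CPM (counts scaled to a common library size). The adipocyte markers were present in every library, and none of the 12 was at 0. However, 2 batch 1 controls stood apart. In control replicate 1, epididymis markers made up 13.1% of counts, against at most 0.00536% in any other library, and the adipocyte markers 0.489%. Control replicate 4 had 7999 genes detected, while the other libraries had between 10903 and 13780. Where leaving out these libraries turned a direction, changed a call or moved the batch 1 value of one of the 8 genes markedly, the value without them is given as well, as an alternative chosen after seeing the data. The 12 macrophage markers summed to 537 to 2685 CPM in the batch 1 controls, 2560 to 4108 CPM in WD and 501 to 1056 CPM in the batch 2 controls. The 12 adipocyte markers summed to 6355 to 49952, 25449 to 39286 and 55923 to 67704 CPM, and in the batch 1 diet comparison 6 had higher and 6 lower estimates in WD, with 0 called by edgeR. Against the batch 2 controls, 11 of the 12 had lower estimates in WD, with a median log2 fold change of -0.92. There, 8 were called lower and 1 higher, beside 6.4% of all genes called. Between the control batches, on the same diet, all 12 had higher estimates in batch 2, with 0 called and a median of 0.90. In bulk tissue, fewer cells of a type and less RNA per cell cannot be told apart.

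To examine the response to the diet, levels were first read in every library as TMM-normalized CPM. Srebf2, on chromosome 15 (82147269 to 82204960), encodes the SREBP-2 precursor. It was at 29.8, 15.5, 19.6 and 25.5 CPM in the batch 1 controls, at 17.3, 13.3, 15.9, 7.92 and 4.83 CPM in WD, and at 13.8, 6.29, 3.52, 15.97 and 3.89 CPM in the batch 2 controls. The WD range overlapped both control ranges, and the highest libraries were controls of batch 1. The means were 22.6 ± 6.32 (SD, n = 4), 11.9 ± 5.31 (SD, n = 5) and 8.69 ± 5.79 CPM (SD, n = 5). In edgeR's quasi-likelihood test within batch 1, the log2 fold change was -0.94 (95% interval -2.35 to 0.48, FDR = 1). The direction was the opposite against the batch 2 controls, at 0.43 (-0.77 to 1.64, FDR = 0.812). The batch 2 controls were themselves lower than the batch 1 controls by a log2 fold change of -1.39 (-2.82 to 0.05, FDR = 0.687). Thus, the sign of the Srebf2 difference depended on the control batch. The batch 1 value was -0.57 without control replicates 1 and 4.

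Insig1, on chromosome 5 (28071412 to 28078662), encodes an INSIG protein, which retains SCAP while sterols are plentiful, and is itself an SREBP target. It was at 19.7, 22.9, 44.4 and 233 CPM in the batch 1 controls, at 128, 135, 79.9, 97.0 and 165 CPM in WD, and at 84.2, 51.3, 105, 43.1 and 103 CPM in the batch 2 controls. Control replicate 4 was the highest of all 14 libraries, whereas the other batch 1 controls were below every WD library. The means were 80.0 ± 103 (SD, n = 4), 121 ± 33.4 (SD, n = 5) and 77.2 ± 28.7 CPM (SD, n = 5). Within batch 1 the log2 fold change was 0.59 (95% interval -0.79 to 1.98, edgeR FDR = 1). Without control replicate 4 it was 2.04 (edgeR FDR = 0.0544), the lowest FDR of any of the 8 genes under any setting tried. Without control replicates 1 and 4 together, an alternative chosen after seeing the data, it was 1.85 (edgeR FDR = 0.0570). Against the batch 2 controls the log2 fold change was 0.63 (0.05 to 1.22, edgeR FDR = 0.236). The WD mean was higher in both cases, and 1 library set the size of the batch 1 difference.

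Hmgcs1, on chromosome 13 (119690351 to 119708260), encodes the cytosolic synthase that makes HMG-CoA early in the pathway. It was at 78.7, 215, 363 and 419 CPM in the batch 1 controls, at 467, 365, 311, 547 and 539 CPM in WD, and at 224, 263, 364, 330 and 380 CPM in the batch 2 controls. In WD, 3 of the 5 libraries were above all 9 controls, and the other two were within the control range. The means were 269 ± 153 (SD, n = 4), 446 ± 105 (SD, n = 5) and 312 ± 66.6 CPM (SD, n = 5). Within batch 1, WD was higher by a log2 fold change of 0.73 (95% interval -0.20 to 1.65, edgeR FDR = 1). It was 0.51 (0.06 to 0.96, edgeR FDR = 0.211) against the batch 2 controls and 0.59 (-0.04 to 1.22, edgeR FDR = 0.718) against all 9 controls. These comparisons share the 5 WD libraries. The WD mean was higher in each, and none passed the threshold. Leaving out 1 library at a time moved the difference against all controls between 0.48 and 0.70. Within batch 1 it moved between 0.42, without control replicate 1, and 1.01, without control replicate 4 (edgeR FDR = 0.467), and was 0.63 without both.

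Idi1, on chromosome 13 (8885606 to 8892396), encodes the isomerase of isopentenyl diphosphate. It was at 0.324, 0.250, 0.167 and 5.15 CPM in the batch 1 controls, at 2.54, 0.536, 2.81, 6.09 and 2.83 CPM in WD, and at 3.04, 3.34, 4.19, 3.67 and 0.599 CPM in the batch 2 controls. Control replicate 4 held 71 counts, whereas the other batch 1 controls held 2 or 3, at or under the floor of 3 counts. WD replicate 2 held 5 counts and control replicate 9 held 6, and all other libraries were well above the floor. For WD within batch 1, the log2 fold change of 1.00 had a 95% interval of -2.52 to 4.52 (edgeR FDR = 1), and that against the batch 2 controls was -0.01 (-2.13 to 2.12, edgeR FDR = 0.998). The batch 1 value rested on control replicate 4. Without it, the log2 fold change was 3.51 (edgeR FDR = 0.588), and without control replicates 1 and 4 it was 3.77 (edgeR FDR = 0.705).

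Fdps, on chromosome 3 (89093588 to 89101967), encodes farnesyl diphosphate synthase, at the branch between sterols and the other isoprenoids. It was at 52.4, 8.68, 4.33 and 16.5 CPM in the batch 1 controls, at 17.3, 30.04, 8.29, 16.6 and 19.7 CPM in WD, and at 9.89, 12.3, 7.11, 11.4 and 28.3 CPM in the batch 2 controls. The groups overlapped, and control replicate 1 was the highest library. With it, the batch 1 log2 fold change was -0.16 (95% interval -1.823 to 1.499, edgeR FDR = 1), and without it, it was 0.90 (edgeR FDR = 1.00). Leaving out control replicate 4 as well gave 1.498. Fdps shares 1124 exon bases with Gm43738, a protein-coding gene on the same strand, 59 bases from its 3′ end. Gm43738 is not among the genes of the count table.

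Fdft1, on chromosome 14 (63145151 to 63179578), encodes squalene synthase, the first enzyme committed to sterols. It was at 45.3, 62.1, 36.3 and 25.04 CPM in the batch 1 controls, at 70.2, 51.2, 105, 49.3 and 68.7 CPM in WD, and at 74.4, 78.8, 57.4, 42.1 and 37.0 CPM in the batch 2 controls. In WD, 3 of 5 libraries were above every batch 1 control, but only 1 of 5 was above every batch 2 control. The means were 42.2 ± 15.7 (SD, n = 4), 68.8 ± 22.3 (SD, n = 5) and 58.0 ± 18.7 CPM (SD, n = 5). WD differed by a log2 fold change of 0.70 (95% interval -0.12 to 1.52, edgeR FDR = 1) within batch 1 and 0.23 (-0.34 to 0.81, edgeR FDR = 0.778) against the batch 2 controls. In batch 1 it was 0.48 without control replicates 1 and 4. The 3′ end of Fdft1, where these reads fall, shares 774 exon bases with the 3′ end of Ctsb, a lysosomal protease gene on the opposite strand, and the strand setting of the counting is not stated. Ctsb, chosen from the annotation after values were seen, was at 316 to 1367 CPM in the batch 1 controls, 1304 to 1746 CPM in WD and 647 to 908 CPM in the batch 2 controls. It was higher in WD than in the batch 2 controls by 0.91 on the log2 scale (0.56 to 1.26, edgeR FDR = 0.00253), and by 0.79 (-0.07 to 1.66, edgeR FDR = 1.00) within batch 1. After centring on the group means, Fdft1 and Ctsb had a Pearson correlation of -0.38 over 14 libraries, and of -0.45 without control replicates 1 and 4.

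Sqle, on chromosome 15 (59315092 to 59331193), encodes squalene epoxidase, which makes the substrate of ring closure. It was at 24.2, 3.59, 11.3 and 0 CPM in the batch 1 controls, at 5.65, 8.48, 6.96, 5.30 and 20.5 CPM in WD, and at 4.66, 9.06, 8.01, 6.27 and 4.49 CPM in the batch 2 controls. Control replicates 1 and 4 were the highest and the lowest of all 14 libraries. The log2 fold change was -0.07 (95% interval -2.87 to 2.74, edgeR FDR = 1) within batch 1 and 0.52 (-0.70 to 1.73, edgeR FDR = 0.763) against the batch 2 controls. Leaving out both of these libraries, the batch 1 value was 0.34.

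Cyp51, on chromosome 5 (4080674 to 4104697), encodes lanosterol 14α-demethylase, the first step after the sterol ring has closed. It was at 16.4, 38.3, 16.4 and 5.37 CPM in the batch 1 controls, at 17.4, 27.1, 27.7, 13.1 and 35.0 CPM in WD, and at 17.9, 25.2, 27.1, 20.1 and 12.98 CPM in the batch 2 controls. The 3 groups overlapped, with means of 19.1 ± 13.8 (SD, n = 4), 24.1 ± 8.76 (SD, n = 5) and 20.6 ± 5.68 CPM (SD, n = 5). Cyp51 had a log2 fold change of 0.33 (95% interval -1.08 to 1.73, edgeR FDR = 1) within batch 1 and 0.20 (-0.53 to 0.94, edgeR FDR = 0.868) against the batch 2 controls. The batch 1 value was -0.19 without control replicates 1 and 4. Its 3′ end shares 166 exon bases with that of Akap9, on the opposite strand. Akap9, also chosen from the annotation, had a log2 fold change of -0.42 within batch 1 (edgeR FDR = 1.00) and of -0.13 against the batch 2 controls (edgeR FDR = 0.834). The centred correlation of Cyp51 with Akap9 was 0.15, and 0.22 without control replicates 1 and 4.

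**Figure D1:**
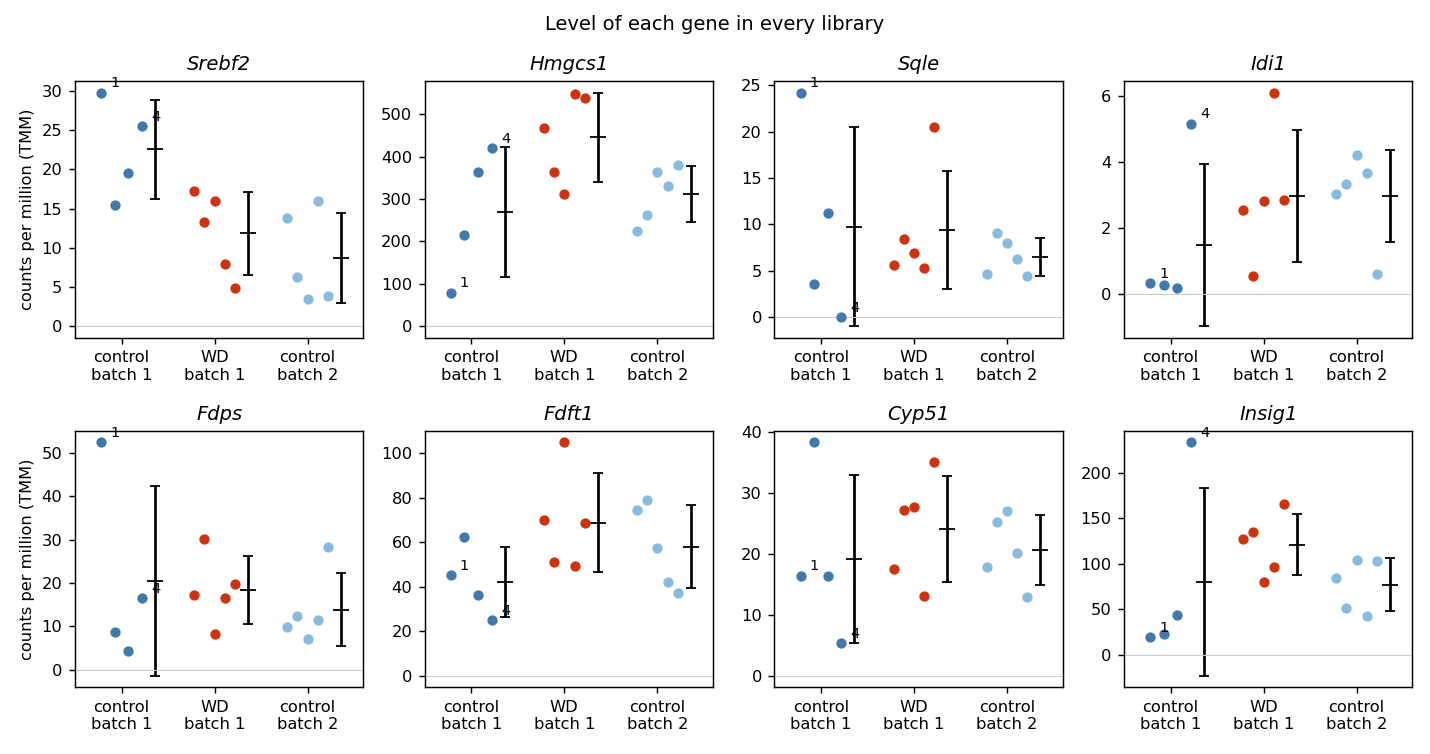
Level of the 8 genes in TMM-normalized CPM in each library, with control replicates 1 and 4 of batch 1 numbered. Points are libraries, and the black bar is the group mean with its SD (n = 4, 5 and 5). The groups overlapped for every gene, and Insig1 in control replicate 4 (233 CPM) stood above all other libraries.

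Across the set, the diet comparison within batch 1 gave an FDR under 0.05 for 0 of the 8 genes, and the same held for 0% of the 12157 genes tested. At an unadjusted p under 0.05, edgeR gave 0 of 8, against 5.17% of all genes. DESeq2 called 114 genes and 0 of the 8. Of the 8, 5 had a positive and 3 a negative log2 fold change, with a median of 0.46 beside 0.03 over all genes tested. No gene of the set had groups that did not overlap, against 3.87% of all genes. Against all 9 controls, edgeR called 0 of 8 (0.53% of 12653 genes). DESeq2 called 236 genes there and 0 of the 6 members to which it gave an adjusted p, with none given for Sqle and Idi1. In edgeR, 0 of 8 had an unadjusted p under 0.05 (7.73%) or groups that did not overlap (1.34%). The median log2 fold change was 0.30, beside -0.04 over all genes. Against the batch 2 controls, 0 of 8 were called, whereas 6.4% of the 12070 genes were. At an unadjusted p under 0.05, 2 of 8 (Hmgcs1 and Insig1) were below the threshold, against 17.7% of all genes. No gene of the set had groups that did not overlap (8.87% of all genes). Here 7 of 8 were positive, with a median of 0.42, beside 6014 of all 12070 genes and a median of -0.0034. Between the control batches, 0 of 8 were called (0% of 12106 genes), and 4 were higher and 4 lower in batch 2.

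**Figure D2:**
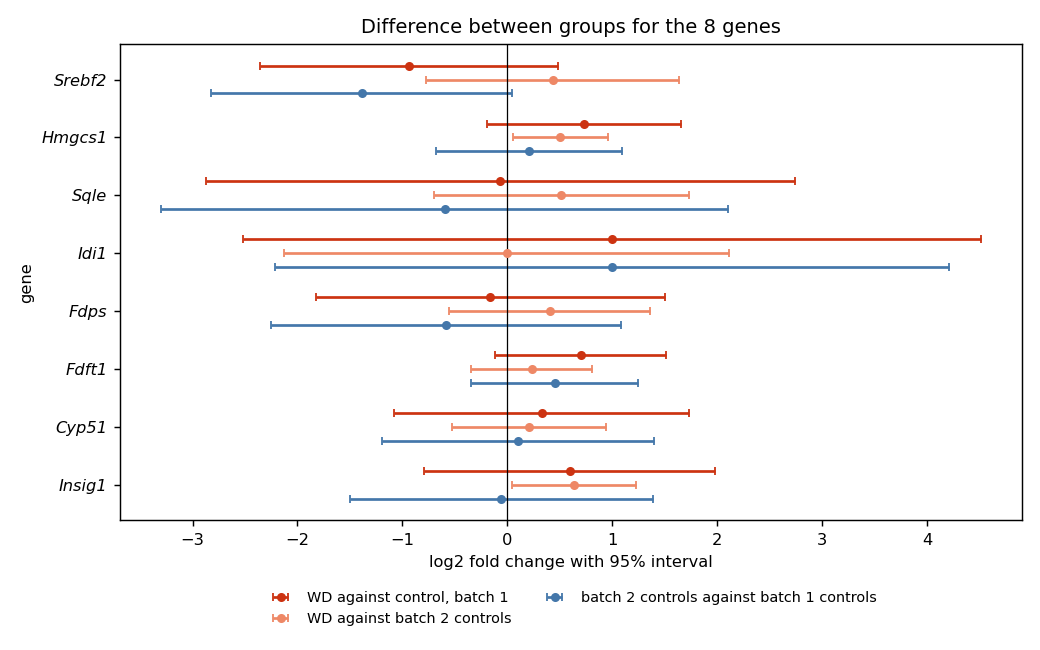
Log2 fold change of the 8 genes with its 95% interval in 3 comparisons: WD against control in batch 1, WD against the batch 2 controls, and batch 2 against batch 1 controls. Points are edgeR estimates. Only Hmgcs1 (0.06 to 0.96) and Insig1 (0.05 to 1.22) had intervals above 0, both against the batch 2 controls.

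The spread was widest between the batch 1 controls. The SD of log2(CPM + 1) was larger in the batch 1 controls than in WD for 7 of the 8 genes (78.3% of the 9828 genes compared), and than in the batch 2 controls also for 7 of the 8 (89.5%), shares near those of all genes. The median SD of the 8 genes was 1.12 in the batch 1 controls, 0.59 in WD and 0.53 in the batch 2 controls. Control replicate 1 or 4 was the highest or the lowest batch 1 control for all 8 genes, and these replicates held both ends for 3 of them. In a group of only 4 libraries, whichever libraries are named will often hold an end. The share of all genes for which this held was not computed, so no conclusion is drawn from this count.

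Next, the whole pathway was followed in a list of 19 synthesis enzymes, which includes 6 of the 8 genes. In batch 1, 18 were tested, 12 with a positive and 6 with a negative log2 fold change, and 0 had an FDR or an unadjusted p under 0.05. The median was 0.51. The extremes of the list were Mvk, the kinase that phosphorylates mevalonate, at 1.09 (95% interval -1.74 to 3.93, edgeR FDR = 1), and Lss, which closes the sterol ring, at -0.37 (-3.38 to 2.65, edgeR FDR = 1). Mvk was at 2.81, 9.01, 7.25 and 0 CPM in the batch 1 controls, at 6.78, 14.4, 5.55, 13.1 and 11.3 CPM in WD, and at 11.7, 8.58, 9.81, 14.8 and 13.3 CPM in the batch 2 controls. Lss was at 15.2, 12.3, 14.2 and 0 CPM in the batch 1 controls and at 11.9, 7.51, 9.70, 0.158 and 11.2 CPM in WD. Both genes were at 0 in control replicate 4, and their groups overlapped. The Mvk log2 fold change in batch 1 was 0.33 without control replicates 1 and 4. Against the batch 2 controls, 0 of the 18 enzymes tested passed the threshold, with a median of 0.10.

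**Figure D3:**
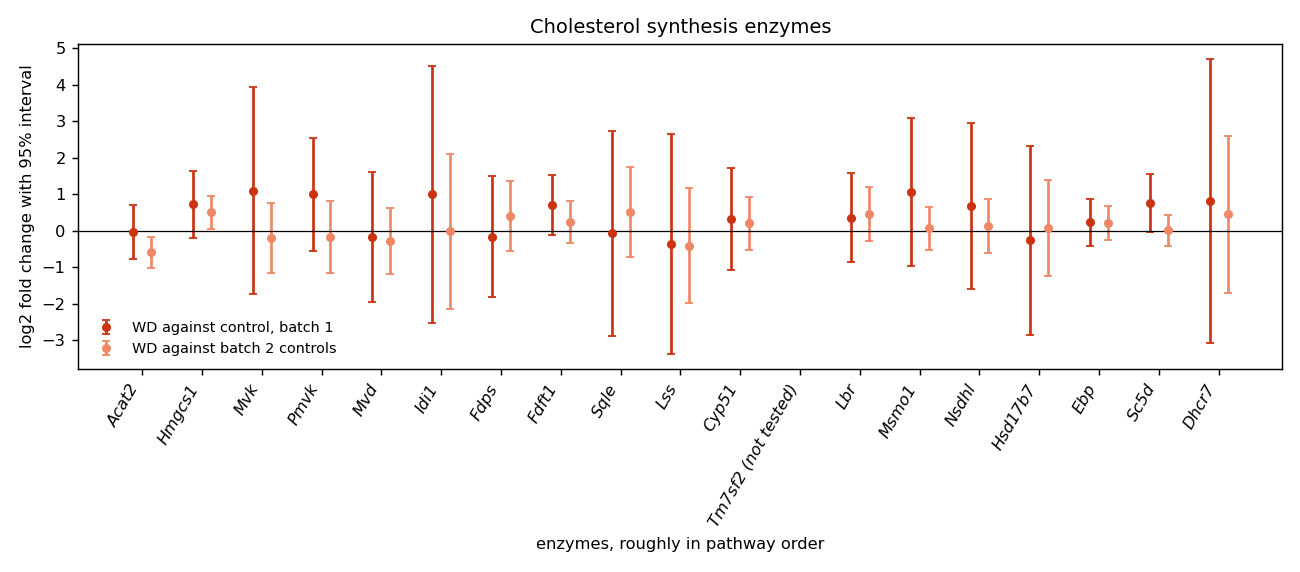
Log2 fold change with its 95% interval for the 19 cholesterol synthesis enzymes, roughly in pathway order, for WD against the control libraries of batch 1 and against the batch 2 controls. Points are edgeR estimates, and Tm7sf2 was not tested in either comparison. None of the enzymes passed the FDR threshold, and the batch 1 intervals were wide for low genes such as Mvk (-1.74 to 3.93).

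The control of SREBP was read from a list of 13 genes, Srebf2 and Insig1 among them. In batch 1, 4 were positive and 9 negative, with 0 called and a median of -0.15. Insig2, the second INSIG gene, which is not an SREBP target in the manner of Insig1, was the only gene of the list called in any comparison. It was at 10.6, 27.4, 31.8 and 32.8 CPM in the batch 1 controls, at 17.8, 21.8, 21.6, 23.8 and 30.6 CPM in WD, and at 57.7, 54.6, 62.7, 50.7 and 61.4 CPM in the batch 2 controls. All batch 2 controls were above all 9 libraries of batch 1, whatever the diet. Between WD and the batch 2 controls, 8.87% of all genes had groups that did not overlap. The share of all genes that separated the control batches is not given, so the Insig2 pattern cannot be called particular to it. Between the control batches, 2 of the 13 genes of this list and 6 of the 12 adipocyte markers did not overlap, all higher in batch 2. The Insig2 log2 fold change of WD against the batch 2 controls was -1.32 (95% interval -1.82 to -0.83, edgeR FDR = 0.00193). Within batch 1 it was -0.15 (-1.29 to 0.99, edgeR FDR = 1.00), and between the control batches it was 1.15 (0.34 to 1.97, edgeR FDR = 0.475). Insig1 and Insig2 thus had log2 fold changes of opposite sign against the batch 2 controls, and the difference between them was not tested. The adipocyte markers were lower in WD in the same comparison, and their part in the Insig2 value was not tested.

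Of 11 genes of uptake and intracellular delivery, 8 were tested in batch 1, 6 positive and 2 negative, with 0 called. Lrp8 and Npc1l1 had no count in any library. Mylip, a sterol-induced ubiquitin ligase, had the lowest batch 1 value of the list at -0.64 (95% interval -1.97 to 0.69, edgeR FDR = 1).

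Npc2 and Npc1 carry cholesterol out of the lysosome. Npc2 was at 2957, 1079, 820.4 and 1820.4 CPM in the batch 1 controls, at 1513, 6153, 2325, 2117 and 2611 CPM in WD, and at 1231 to 1478 CPM in the batch 2 controls. Its WD and batch 2 control ranges did not overlap, which held for 8.87% of all genes. Npc2 was higher in WD than in the batch 2 controls, which differed in batch as well, by a log2 fold change of 1.13 (95% interval 0.51 to 1.76, edgeR FDR = 0.0277). This call was lost when any 1 of control replicates 5 to 9 was left out, with edgeR FDR between 0.0526 and 0.0756, while the log2 fold change stayed between 1.11 and 1.17. WD replicate 2, at 6153 CPM, stood above the other WD libraries, and without it the value was 0.68 and still passed the threshold. Against all controls the FDR fell to 0.0363 when control replicate 1 was left out. In batch 1 the value was 0.81 (-0.32 to 1.95, edgeR FDR = 1), with overlap, and 1.63 (edgeR FDR = 0.207) without control replicates 1 and 4. The highest batch 1 control, at 2957 CPM, was replicate 1, in which epididymis markers made up 13.1% of counts. The part of this in its Npc2 level was not tested. Npc1, with the highest batch 1 value of the list, was at 29.4, 40.2, 35.01 and 63.6 CPM in the batch 1 controls, at 83.5, 70.7, 74.6, 76.6 and 65.2 CPM in WD, and at 58.05, 64.2, 47.5, 46.4 and 67.3 CPM in the batch 2 controls. Within batch 1 every WD library was above every control, and 3.87% of all genes had groups that did not overlap there. The Npc1 log2 fold change was 0.81 (0.11 to 1.52, edgeR FDR = 0.835), and 0.98 (edgeR FDR = 0.253) without control replicates 1 and 4. The WD and batch 2 control ranges overlapped, and the value there was 0.37 (-0.05 to 0.80, edgeR FDR = 0.364). Neither difference passed the threshold. Npc1 shares 511 exon bases with Rmc1 on the opposite strand, 114 bases from its 3′ end. All 12 macrophage markers had higher estimates in WD in batch 1, with 0 called by edgeR and a median of 1.47. Against the batch 2 controls, which differed in batch as well, 10 of the 12 macrophage markers were called, beside 6.4% of all genes. Their median there was 2.01. Their part in the values of Npc2, Npc1 and Ctsb, and that of the lower adipocyte markers, was not tested.

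**Figure D4:**
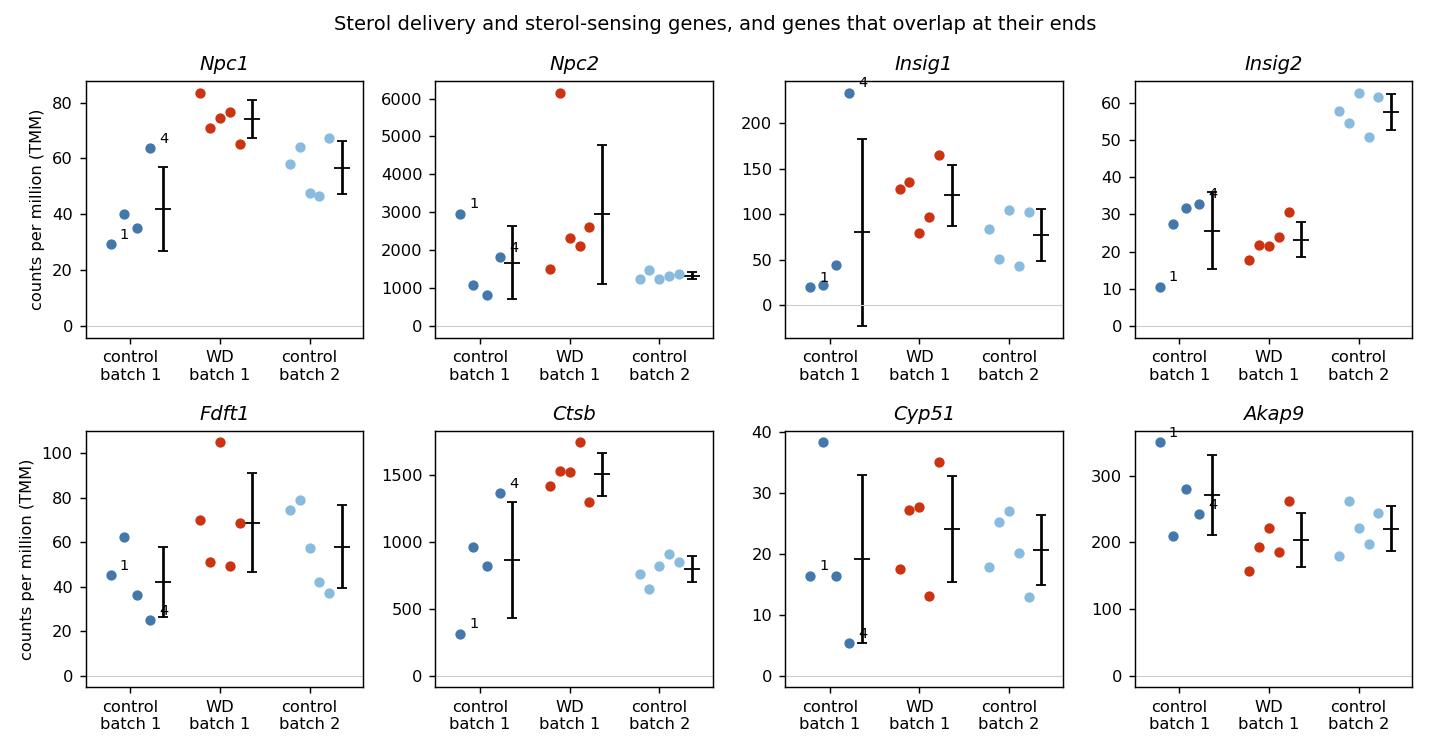
Level in TMM-normalized CPM in each library of the delivery genes Npc1 and Npc2, the INSIG pair (Insig1, Insig2), Fdft1 beside Ctsb, and Cyp51 beside Akap9, the members of each of the last pairs overlapping at their 3′ ends. Points are libraries, black bars are mean and SD, and control replicates 1 and 4 are numbered. Insig2 was higher in every batch 2 library (50.7 to 62.7) than in batch 1, and the share of all genes with this pattern is not given. Npc2 was higher in all 5 WD libraries (1513 to 6153) than in any batch 2 control. Between WD and the batch 2 controls, 8.87% of all genes did not overlap.

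Of 5 enzymes on other branches of the mevalonate pathway, 4 were tested in batch 1, with 0 called. The highest was Ggps1, which makes geranylgeranyl diphosphate, at 1.11 (95% interval -0.51 to 2.73, edgeR FDR = 1), and the lowest was Pdss1, which makes the side chain of coenzyme Q, at -0.72 (-4.50 to 3.06, edgeR FDR = 1). The 3′ end of Pdss1 shares 194 exon bases with that of Abi1, on the opposite strand. Ggps1 was at 23.2, 7.26, 15.6 and 2.10 CPM in the batch 1 controls, 15.4 to 48.9 CPM in WD and 24.1 to 54.6 CPM in the batch 2 controls. Its log2 fold change between the control groups was 1.65 (0.25 to 3.04, edgeR FDR = 0.584). There, 895 of 12106 genes had an unadjusted edgeR p under 0.05. For WD against the batch 2 controls, the Ggps1 value was -0.55, so its sign depended on the control batch.

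Finally, whether the 8 genes varied together was described over the 14 libraries after subtracting the mean of each group. Libraries within a group share diet and batch. The 28 pairs had Pearson correlations between -0.64 and 0.69 with a median of -0.21, and 11 were above 0. The 3 pairs above 0.5 were Fdft1 with Cyp51 (0.69), Hmgcs1 with Insig1 (0.66) and Sqle with Cyp51 (0.58). Without control replicates 1 and 4, the same pairs had correlations of 0.59, 0.49 and 0.33 over 12 libraries, and the median of all pairs was -0.08. Sqle with Insig1 changed sign, from -0.64 to 0.38. The genes outside the lists whose level was most like the mean standardized level of the 8 were Cdc42bpa (0.78), Ube2q1 (0.78), Tor1aip2 (0.76), Golga3 (0.75) and Glb1l2 (0.75), by Pearson correlation over the 14 centred libraries. Without control replicates 1 and 4, these values were 0.57, 0.54, 0.83, 0.54 and 0.72. These genes are the maxima of a search over all genes with a mean log2 of at least 4, and their size was not tested. The pairs of the 8 genes themselves had a median of -0.21, so their mean level is not a shared profile.

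**Figure D5:**
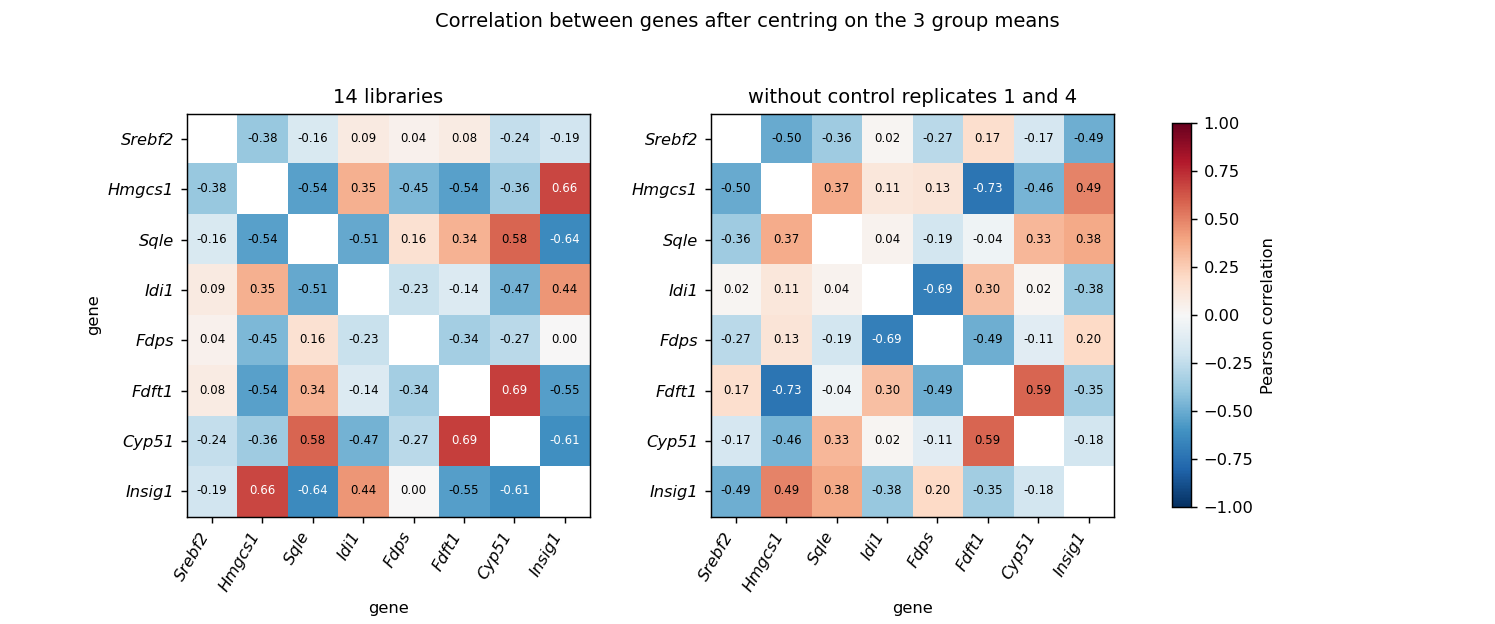
Pearson correlation of log2(CPM + 1) between the 8 genes after centring on the 3 group means, in all 14 libraries (left) and without control replicates 1 and 4 (right). Red is positive and blue negative. Fdft1 with Cyp51 (0.69 and 0.59) and Hmgcs1 with Insig1 (0.66 and 0.49) were positive in both panels, whereas Sqle with Insig1 went from -0.64 to 0.38.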

How the data were processed

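QuantSeq 3′ mRNA sequencing of eWAT was analysed in 14 libraries, 9 control and 5 WD, grouped by diet and batch from the sample labels. The authors aligned the single-end reads by Bowtie2, then used Bedtools to count alignments per gene, reads with several alignments included. The deposited counts are raw. The processing notes name mm10, and 99.4% of 22241 symbols overlapped GENCODE GRCm38. The strand setting is not given in the sources used here. The authors also deposited log2 values of TMM-normalized CPM with 1 added, which differed by at most 0.0495 from values recomputed for the 8 genes.

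Counts were tested with edgeR 4.0.16 (quasi-likelihood, TMM, filterByExpr, no covariate), with the Benjamini-Hochberg FDR over all genes tested and a threshold of 0.05, and with DESeq2 1.42.0 as an alternative, in R 4.3.3. Intervals are 95% intervals from the edgeR fit. Intervals and floors cover only the spread between libraries or counting error, and the labels do not say whether libraries within a group came from separate mice. Levels, correlations and plots used Python 3.11.15, numpy 2.4.6, pandas 2.3.3, scipy 1.17.1 and matplotlib 3.10.9. The 4 comparisons were WD against control in batch 1, against all controls and against batch 2 controls, and batch 2 against batch 1 controls. The scripts were tested on simulated data.

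Named genes were the 8 genes, genes of the other lists with an FDR under 0.05 or the highest or lowest batch 1 log2 fold change of their list, and the 5 genes (mean log2 of at least 4) most correlated with the set. Some genes of the lists are not reported here and are left out of the list counts, and the highest and lowest genes are those of the genes that remain. The genes and lists were chosen with earlier results of these data known. Alternatives were DESeq2 size factors, library totals, no low-count filter, DESeq2, a batch term, the replicate number as a block, the deposited log2 values, Spearman correlation, each library left out in turn and, chosen after seeing the data, control replicates 1 and 4 left out together. Epididymis, mesothelial, endothelial and lymphocyte markers were read as lists of 10, 6, 5 and 5 genes, of which 2, 6, 5 and 2 were tested in batch 1 and 0 had an FDR under 0.05.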

Additional observations from a re-analysis of the deposited data

Results flagged for a closer look

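Of 48 groups tested for a library far from the others, 5 held one, beside 2.4 at a rate of 1 in 20. Some genes, Lss and Insig2 among them, were named for their values in these data, so this rate is not a chance level. Values are log2(CPM + 1). Idi1 was at 2.62 in control replicate 4 (71 counts), against 0.22 to 0.40 in the other batch 1 controls, and at 0.68 in control replicate 9 (6 counts), against 2.01 to 2.38 in the other batch 2 controls. Lss was at 0 in control replicate 4, against 3.73 to 4.02, and at 0.21 in WD replicate 4 (2 counts), against 3.09 to 3.69. Insig2 was at 3.53 in control replicate 1 (98 counts), against 4.83 to 5.08. Control replicate 4 and WD replicate 4 were the libraries with the fewest genes detected, at 7999 and 10903, and the part of this in the low values was not tested.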

How the results depend on the processing

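Over 504 values of the 8 genes under the alternatives, 464 kept their direction and 40 reversed it, and none with an adjusted p passed the threshold. DESeq2 gave no adjusted p for Sqle and Idi1 against all controls or for Idi1 between control batches. The causes of the changes below were not tested. Log2 fold changes are given for genes. DESeq2 called 114 genes in batch 1, 236 against all controls and 111 between control batches, where edgeR called 0, 67 and 0. With a batch term, 1 gene was called against all controls, and Sqle (-0.045), Fdps (-0.15) and Ggps1 (1.13) reversed. Without control replicates 1 and 4, 108 genes were called in batch 1, where Sqle (0.34), Fdps (1.498), Cyp51 (-0.19) and Mylip (0.40) reversed. Against all controls, 619 were called and Srebf2 (0.065), Mvk (-0.069), Mylip (0.31) and Pdss1 (0.43) reversed, while Insig2 (-1.11, edgeR FDR = 0.0195) and Npc2 (1.25, edgeR FDR = 0.0075) became called. Between control batches, 28 were called and Fdps (1.08), Cyp51 (-0.40), Insig1 (1.20), Lss (-0.30), Npc2 (0.49) and Mylip (0.12) reversed. With library totals alone Sqle in batch 1 was at 0.038. DESeq2 size factors and DESeq2 gave 0.013 and 0.013 for Idi1 against the batch 2 controls and -0.068 and -0.068 for Lss between control batches.

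Libraries of different diets with the same replicate number come from different mice and share only that number, and the correlations of same-numbered deviations were -0.02, 0.04, 0.05 and 0.08. With the replicate number as a block, which drops WD replicate 5, 0 genes were called, and Sqle (0.62), Fdps (0.28) and Lss (0.025) reversed, while Hmgcs1 was at 0.81 and Insig1 at 1.26.

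Leaving out 1 library at a time gave 0 to 48 called genes in batch 1, 28 to 289 called genes against all controls, 565 to 977 called genes against the batch 2 controls and 0 to 2 called genes between control batches, with the highest batch 1 count without control replicate 4. Log2 fold changes that reversed in batch 1 ranged for Cyp51 from -0.00251 to 0.89, Fdps from -0.52 to 0.90, Pdss1 from -1.42 to 0.39 and Sqle from -0.60 to 0.92. Log2 fold changes that reversed against all controls ranged for Fdps from -0.11 to 0.58, Ggps1 from -0.39 to 0.18, Idi1 from -0.11 to 0.62, Mylip from -0.37 to 0.0137, Pdss1 from -0.78 to 0.62 and Sqle from -0.27 to 0.66. Log2 fold changes that reversed against the batch 2 controls ranged for Idi1 from -0.46 to 0.26. Log2 fold changes that reversed between control batches ranged for Cyp51 from -0.19 to 0.72, Fdps from -1.02 to 0.48, Hmgcs1 from -0.0979 to 0.52, Insig1 from -0.39 to 1.43, Lss from -0.36 to 0.28, Npc2 from -0.55 to 0.0887 and Sqle from -0.97 to 0.40. Idi1, Sqle and Pdss1 held counts at or under the floor of 3 in some libraries.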
